A study of Mus musculus with 38 samples.

Results

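Messenger RNA of 8 genes of inflammatory cell death was followed in primary mouse embryonic fibroblasts (MEFs) of strain C57BL/6. The genes were Nlrp3, Aim2, Pycard, Casp1, Casp4, Gsdmd, Ripk3 and Mlkl, chosen by name as members of the inflammasome, pyroptosis and necroptosis pathways. Each was found as 1 row in both count tables of 45706 gene rows, and all 8 passed the filters on low counts. RelA-TA-KI cells are homozygous for a knock-in allele of Rela, the gene of the NF-kB subunit RelA, and wild-type (WT) cells carry none. TA is read here from the study's title as transactivation, and the labels give no further detail of the allele. All cells were starved of serum overnight, which the untreated cells share, and were then harvested untreated or after 0.5, 1, 3 or 8 h with Poly(I:C) at 20 ug/ml, LPS at 100 ng/ml or TNF at 10 ng/ml. TNF is a cytokine, LPS a bacterial lipid sensed by TLR4 on the surface, and Poly(I:C) a synthetic double-stranded RNA. The TNF table holds 20 libraries, with 2 replicates per genotype and time including untreated cells. The LPS and Poly(I:C) table holds 18 libraries, 1 per genotype and condition, with untreated cells of its own. The labels do not say whether replicates were separate embryos or cultures, so p-values measure only the spread between these libraries.

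Inflammasomes are cytosolic platforms in which a sensor such as NLRP3 or AIM2 recruits the adaptor ASC (gene Pycard), which activates caspase-1 (Casp1). Caspase-1 matures interleukin-1 beta and interleukin-18. Mouse caspase-11 (Casp4) binds LPS inside the cell directly. Both caspases cleave gasdermin D (Gsdmd), whose freed part makes pores in the plasma membrane, a lytic death called pyroptosis. In necroptosis the kinase RIPK3 (Ripk3) phosphorylates the pseudokinase MLKL (Mlkl), which then breaks the membrane. Several of these genes are kept low in resting cells and are transcribed after NF-kB or interferon signals, a step known as priming, and in macrophages they are far better studied than in fibroblasts.

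Promoter windows from RefSeq (GRCm38.p6, from 250 bases before to 50 bases after an annotated start) were at hand for 7 members. Shown are those of the 3 members that RelA-TA-KI cells held at another level than WT cells in at least 1 comparison and whose window held a searched motif. Capitals mark the motif matches. The Casp4 window lies at chr9:5308599-5308898 on the plus strand, the Nlrp3 window at chr11:59541319-59541618 on the plus strand and the Ripk3 window at chr14:55788808-55789107 on the minus strand.
Casp4: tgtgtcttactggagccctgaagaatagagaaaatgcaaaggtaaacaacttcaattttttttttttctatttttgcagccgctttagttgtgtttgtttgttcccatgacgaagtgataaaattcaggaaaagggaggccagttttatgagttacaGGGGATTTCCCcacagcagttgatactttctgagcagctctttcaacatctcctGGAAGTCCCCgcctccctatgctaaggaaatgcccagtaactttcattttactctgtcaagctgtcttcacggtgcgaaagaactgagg
Nlrp3: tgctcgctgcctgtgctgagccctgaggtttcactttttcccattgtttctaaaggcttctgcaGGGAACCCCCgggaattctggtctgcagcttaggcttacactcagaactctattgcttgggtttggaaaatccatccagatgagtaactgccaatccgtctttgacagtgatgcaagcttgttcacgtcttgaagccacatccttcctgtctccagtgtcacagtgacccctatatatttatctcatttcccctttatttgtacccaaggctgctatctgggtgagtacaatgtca
Ripk3: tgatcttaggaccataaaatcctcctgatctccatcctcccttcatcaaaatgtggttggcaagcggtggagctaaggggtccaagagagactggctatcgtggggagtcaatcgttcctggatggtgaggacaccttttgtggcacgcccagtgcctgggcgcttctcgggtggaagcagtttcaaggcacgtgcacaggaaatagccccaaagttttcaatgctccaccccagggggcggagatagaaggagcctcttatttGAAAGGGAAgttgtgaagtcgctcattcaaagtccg
In the Casp4 window the kappa-B consensus, the sequence bound by NF-kB dimers, matched 3 times. Counted with the start base as 0, an overlapping pair ran from position -93 to -84 and from -92 to -83, and the third match lay on the other strand from -39 to -30. The Nlrp3 window shown had 1 match, from -186 to -177. RefSeq has a second start for both genes: the second Nlrp3 window (chr11:59542436-59542735) held no match to any motif searched, and the second Casp4 window (chr9:5308610-5308909) held the same 3 matches. Ripk3 had no kappa-B match, and its capitals mark the core of the interferon-stimulated response element (GAAANNGAA) from position 14 to 22. Over all 32851 RefSeq windows, searched on both strands, 8.5% held the kappa-B consensus and 8.6% held GAAANNGAA. The windows of Casp1, Mlkl, Aim2 and Pycard held neither, nor the AP-1 site TGANTCA (7.8% of windows) or the interferon-gamma activated site TTCNNNGAA (8.3%). A match is a stretch of letters and was not tested for binding.

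Each of the TNF libraries held 6.72 to 9.59 M counts, and each of the LPS and Poly(I:C) libraries 7.02 to 9.43 M. Levels are given as CPM, which are counts scaled to the library size after adjustment by its TMM factor, the scaling factor of edgeR. In the table of LPS and Poly(I:C) these factors were 0.7189 to 1.183, so CPM there are not shares of the plain library total. Rela itself had 67.2 to 128 CPM in RelA-TA-KI and 71.9 to 163 CPM in WT libraries of the TNF table. At 1 h of TNF it had 80.8 and 81.4 CPM in RelA-TA-KI, against 122.9 and 118.5 CPM in WT. At 8 h it had 127.7 and 120 CPM in RelA-TA-KI, against 162.8 and 148.3 CPM in WT. At 3 h of LPS it had 173.5 CPM in RelA-TA-KI and 306.8 CPM in WT. These levels do not check the labels, since a knock-in can leave the level of its own transcript in place. All 10 fibroblast markers were detected in every library. All 20 macrophage markers were detected too. Their summed level was 1506 to 5095 CPM in RelA-TA-KI and 1316 to 2621 CPM in WT libraries of the TNF table. In the table of LPS and Poly(I:C) it was 4428 to 8130 CPM in RelA-TA-KI and 5438 to 7446 CPM in WT libraries. The macrophage marker Adgre1 reached 230 CPM in the TNF table and 879 CPM in the other. Of the T cell markers, Cd3d was at 0 in every library and Cd3e and Cd3g had at most 1 count, while Lck reached 52 counts. Of the neutrophil markers, Ly6g, Mpo and Elane had at most 2 counts, while S100a8 reached 15 and S100a9 33 counts. The endothelial marker Kdr reached 45.8 CPM in the TNF table and 761 CPM in the other. The endothelial markers Pecam1, Cdh5 and Tek reached at most 7.37, 13.1 and 8.81 CPM. Of the epithelial markers, Krt14 reached 40.3, Krt5 32.4, Cdh1 15.1 and Epcam 6.74 CPM. Of the muscle markers, Acta1 reached 41.5, Myh3 16.6, Myog 5.53, Myod1 1.97 and Ckm 0.614 CPM. In such bulk samples, fewer cells of a type and less RNA per cell cannot be told apart. The WT library at 1 h of Poly(I:C) stood apart for Il1b, with 35.1 CPM, against 1.70 CPM at 0.5 h and 3.32 CPM at 3 h.

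With TNF, Nlrp3, Casp4, Gsdmd and Mlkl rose in both genotypes, while Casp1, Aim2 and Pycard were not called at any time. A gene was called when its adjusted p was below 0.05 in edgeR's quasi-likelihood test over 13843 genes (Benjamini-Hochberg). In RelA-TA-KI cells 1, 1, 3 and 5 of the 8 genes were called higher at 0.5, 1, 3 and 8 h. The shares of all genes called higher there were 0.831%, 2.00%, 10.9% and 21.6%. In WT cells 0, 2, 4 and 4 of the 8 were called higher, against 0.910%, 2.57%, 9.32% and 12.0% of all genes. No member was called lower at any time. At 8 h the median log2 change of the 8 genes was 0.87 in RelA-TA-KI and 1.16 in WT cells, against -0.02 in RelA-TA-KI and -0.01 in WT cells over all genes tested. The times share their untreated libraries within a genotype.

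**Figure D1:**
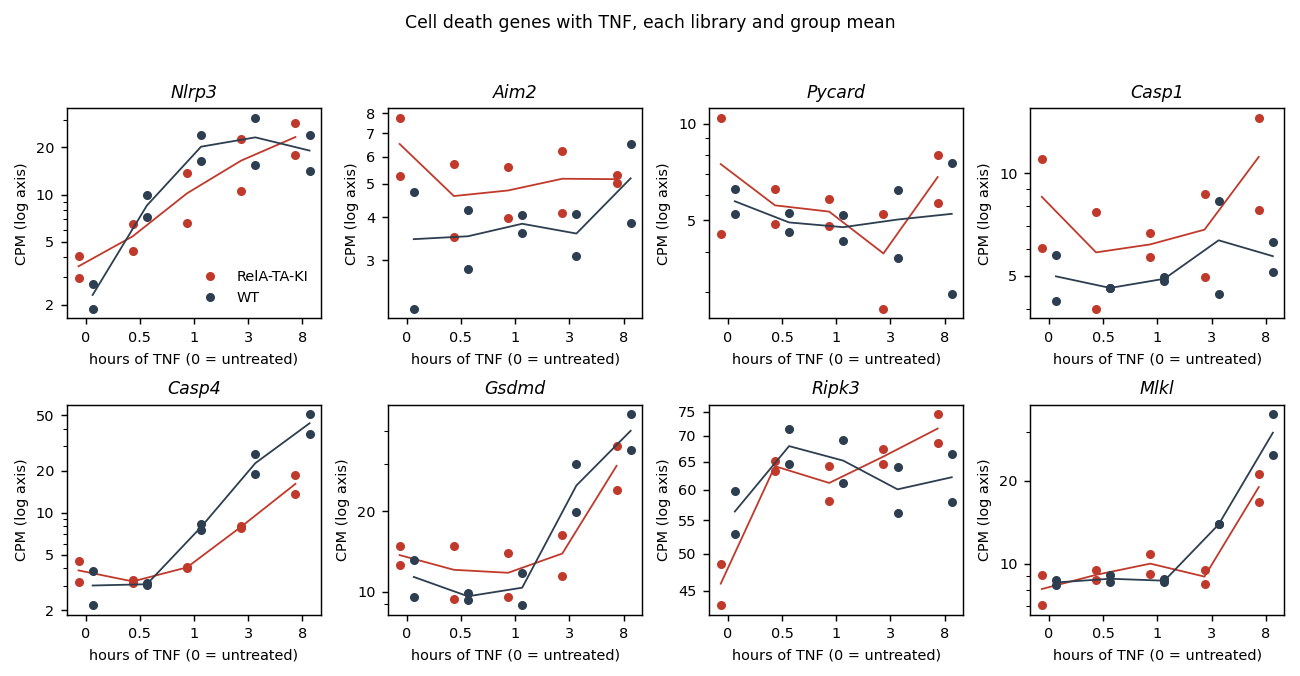
Level of each of the 8 genes (CPM, log axis) in untreated cells and at 0.5, 1, 3 and 8 h of TNF, with points for the 2 libraries of each group, lines through group means, RelA-TA-KI in red and WT in dark grey-blue. Casp4 and Mlkl end lower in RelA-TA-KI libraries at 8 h, at 13.7 and 18.6 CPM for Casp4, against 36.9 and 51.0 CPM in WT libraries.

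Against WT, RelA-TA-KI cells differed in Casp4 at 3 and 8 h of TNF and in Mlkl at 8 h, both lower. The number of the 8 genes called for genotype was 0, 0, 0, 1 and 2 in untreated cells and at 0.5, 1, 3 and 8 h. Over all genes the shares called were 0.00722%, 0.195%, 0.910%, 3.19% and 15.9%, so the count of 2 at 8 h is not far from the background. The difference of responses, meaning the TNF response of RelA-TA-KI cells minus that of WT cells, was called in this fit for Casp4 at 3 and 8 h and for no other member. Members called numbered 0, 0, 1 and 1 at 0.5, 1, 3 and 8 h, against 0.0506%, 0.311%, 0.932% and 6.87% of all genes. With a term for the replicate number, 2, 4 and 4 members were called for genotype at 1, 3 and 8 h. The difference of responses was then called for 1, 3 and 3 members. Shares of all genes are not given for that fit, so its counts have no background to be read against.

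**Figure D2:**
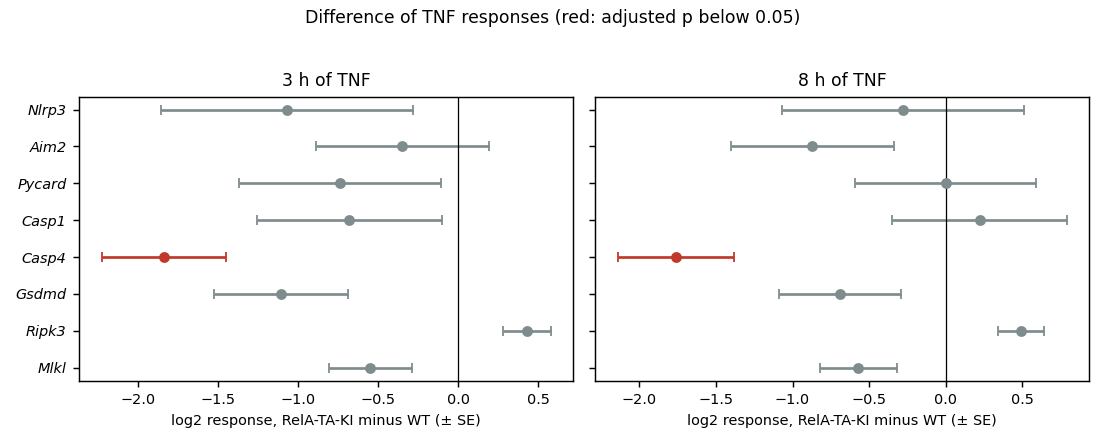
Difference of the log2 TNF responses, RelA-TA-KI minus WT, at 3 h and 8 h for the 8 genes, with bars of 1 standard error. Casp4 stands at -1.84 at 3 h and -1.76 at 8 h, both in red as called, and Ripk3 is the gene with a positive value at both times (0.43 and 0.49, not called).

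In the mean over both genotypes, LPS raised all 8 genes by 8 h and Poly(I:C) 7 of them, all but Ripk3. These include the 3 that TNF, tested in each genotype, left uncalled. With 1 library per genotype and condition, the response was tested as the mean over both genotypes, and the spread behind its p-values is the variation of the genotype difference across the 9 conditions. For LPS 1, 1, 6 and 8 of the 8 genes were called higher at 0.5, 1, 3 and 8 h, against 0.141%, 0.910%, 22.8% and 30.9% of 12752 genes. For Poly(I:C) 0, 0, 6 and 7 were called higher, against 0.00784%, 0.00%, 11.0% and 25.2%. Both agents share the untreated libraries. A genotype difference fitted as common to the 9 conditions was called for 2 of the 8 genes, against 15.9% of all genes. These were Nlrp3 (lower in RelA-TA-KI) and Ripk3 (higher in RelA-TA-KI). The count of 2 is not far from the background. The p-values of this difference measure agreement over conditions, not between cultures.

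**Figure D3:**
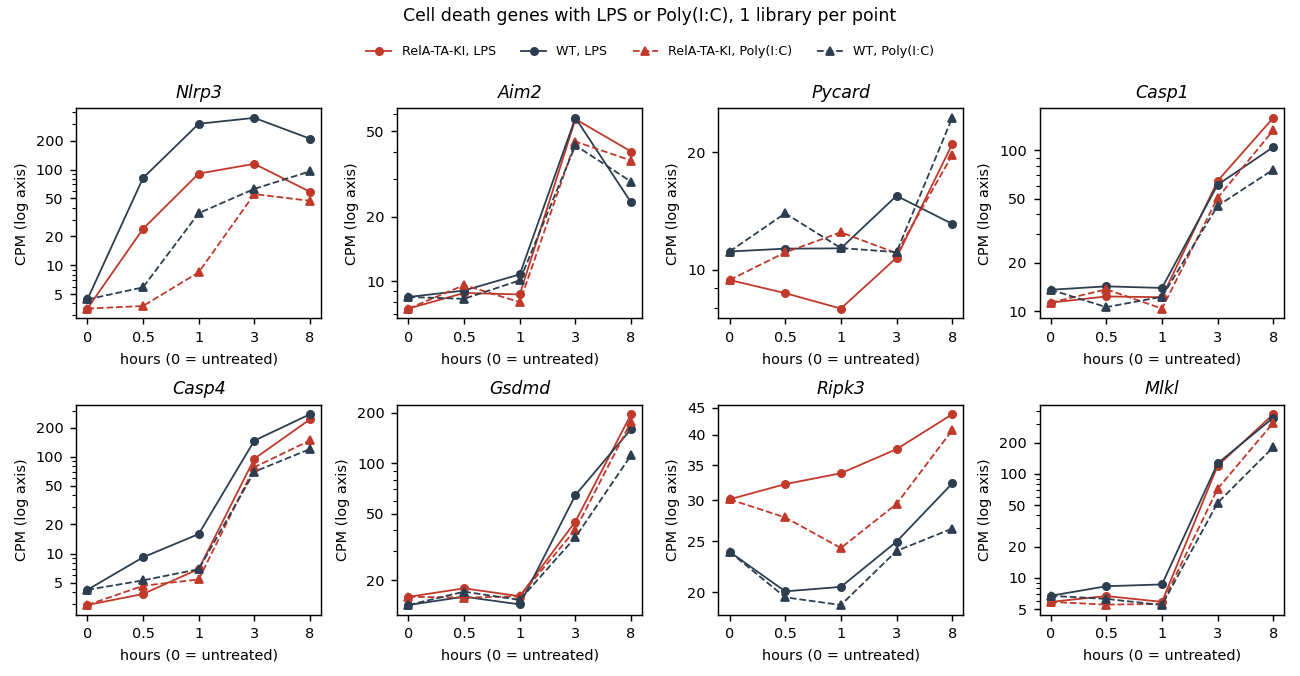
Level of each gene (CPM, log axis) in untreated cells and at 0.5, 1, 3 and 8 h of LPS (circles, solid lines) or Poly(I:C) (triangles, dashed lines), with 1 library per point, RelA-TA-KI in red and WT in dark grey-blue. Nlrp3 with LPS peaks at 114.6 CPM in RelA-TA-KI and 346.1 CPM in WT, while Mlkl with LPS ends at 374 CPM in RelA-TA-KI and 347 CPM in WT.

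Nlrp3 (ENSMUSG00000032691, chr11:59541568-59566956, plus strand, mm10) encodes the sensor that responds to potassium efflux and membrane damage. Untreated RelA-TA-KI libraries had 2.95 and 4.06 CPM, against 1.89 and 2.72 CPM in WT. At 1 h of TNF the RelA-TA-KI libraries had 6.63 and 13.7 CPM and the WT libraries 16.3 and 24.0 CPM. At 8 h they had 17.7 and 28.7 CPM in RelA-TA-KI and 14.1 and 24.0 CPM in WT. RelA-TA-KI libraries were the higher ones in untreated cells and the lower ones at 1 h, both without overlap, and the groups overlapped at 8 h. Overlap between groups of 2 libraries is only a description here and below. Its share over all genes was not computed. The genotype difference in untreated cells was not called (0.57, SE 0.67, adjusted p = 0.76). Nlrp3 rose in RelA-TA-KI cells by 2.23 on the log2 scale at 3 h (SE 0.52, adjusted p = 0.0093) and by 2.72 at 8 h (SE 0.51, adjusted p = 0.00068). In WT cells the rise was 3.09 at 1 h (SE 0.55, adjusted p = 0.0039), 3.30 at 3 h and 3.00 at 8 h. The genotype difference at 1 h was -0.99 (SE 0.45, adjusted p = 0.65), and that of the responses was -1.56 (SE 0.80, adjusted p = 1.0). With no filter on low counts the genotype difference at 1 h was called (-0.99, adjusted p = 1.5e-05), and in WT the response at 0.5 h, 1.85 and not called (adjusted p = 0.27), was called by DESeq2 (1.88, adjusted p = 0.034). The 3 h call in RelA-TA-KI was lost without either untreated replicate (adjusted p = 0.066 and 0.059) or without replicate 2 at 3 h (0.095), and the 1 h call in WT without untreated replicate 2 (0.052).

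With LPS, Nlrp3 was the first member to move and the one with the widest gap between genotypes. RelA-TA-KI libraries had 24.0, 90.7, 114.6 and 58.5 CPM at 0.5, 1, 3 and 8 h, against 81.5, 300.3, 346.1 and 209.9 CPM in WT. Untreated libraries had 3.53 CPM in RelA-TA-KI and 4.40 CPM in WT. With Poly(I:C) the levels at 0.5, 1, 3 and 8 h were 3.76, 8.44, 55.4 and 47.1 CPM in RelA-TA-KI and 5.88, 35.0, 62.8 and 95.7 CPM in WT. The RelA-TA-KI library was the lower one in all 9 conditions. The log2 ratio of RelA-TA-KI to WT was -1.84 to -1.59 over the 4 LPS times, and at 3 h of Poly(I:C) it was -0.18 (95% counting interval -0.37 to 0). The difference common to the 9 conditions was -1.33 (SE 0.19, adjusted p = 0.00061). It was -1.60 (adjusted p = 0.0021) in untreated and LPS libraries alone and -0.86 (adjusted p = 0.11) in untreated and Poly(I:C) libraries alone, and it was -1.25 (adjusted p = 0.0020) without the 2 libraries at 1 h of Poly(I:C).

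Aim2 (ENSMUSG00000037860, chr1:173350879-173466040, plus strand) encodes the sensor of double-stranded DNA, and Pycard (ENSMUSG00000030793, chr7:127992103-127993867, minus strand) the adaptor that joins sensor and caspase. Part of the Aim2 model overlaps Cadm3 on the opposite strand, and the strand setting of the counting is not given, so reads of the pair may be mixed. At 8 h of TNF, Aim2 had 5.03 and 5.29 CPM in RelA-TA-KI and 3.84 and 6.54 CPM in WT, and in untreated cells 5.28 and 7.77 CPM in RelA-TA-KI, against 2.18 and 4.74 CPM in WT. Pycard at 8 h had 5.66 and 7.99 CPM in RelA-TA-KI and 2.95 and 7.54 CPM in WT. The groups overlapped in both genes at 8 h. Their log2 responses at 8 h were -0.34 (SE 0.36) in RelA-TA-KI and 0.53 (SE 0.39) in WT for Aim2, and -0.13 (SE 0.42) in RelA-TA-KI and -0.14 (SE 0.44) in WT for Pycard.

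With LPS, Aim2 peaked at 3 h at 57.0 CPM in RelA-TA-KI and 57.8 CPM in WT, where untreated cells had 7.45 CPM in RelA-TA-KI and 8.44 CPM in WT. Its mean response was 2.85 at 3 h (SE 0.23, adjusted p = 1.6e-06) and 1.99 at 8 h (SE 0.23, adjusted p = 1.7e-05). Poly(I:C) gave 2.46 at 3 h (SE 0.22, adjusted p = 1.0e-05). Pycard was called only at 8 h, at 0.75 with LPS (SE 0.24, adjusted p = 0.017) and 1.10 with Poly(I:C) (SE 0.24, adjusted p = 0.0024). With LPS at 8 h Pycard had 21.0 CPM in RelA-TA-KI and 13.1 CPM in WT, where untreated cells had 9.41 CPM in RelA-TA-KI and 11.1 CPM in WT. The log2 ratio to untreated was 1.16 in RelA-TA-KI (95% counting interval 0.77 to 1.55) and 0.24 in WT (-0.20 to 0.66).

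Casp1 (ENSMUSG00000025888, chr9:5298517-5307265, plus strand) encodes the caspase that matures interleukin-1 beta. It lies next to Casp4 on chromosome 9. Untreated RelA-TA-KI libraries had 6.02 and 11.0 CPM, against 4.21 and 5.75 CPM in WT, and at 8 h of TNF RelA-TA-KI libraries had 7.79 and 14.5 CPM, against 5.12 and 6.28 CPM in WT. RelA-TA-KI libraries were above WT at both times without overlap, yet the difference was not called (log2 0.97, SE 0.40, adjusted p = 0.12 at 8 h), except with no filter on low counts (adjusted p = 0.00068) among the fits without a replicate term. Its responses at 8 h were 0.39 (SE 0.38, adjusted p = 0.43) in RelA-TA-KI and 0.18 (SE 0.43, adjusted p = 0.83) in WT.

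The macrophage markers moved with Casp1. Their sum at 8 h of TNF was 2697 and 5095 CPM in RelA-TA-KI and 1647 and 2621 CPM in WT, and in untreated cells 1992 and 3359 CPM in RelA-TA-KI, against 1464 and 2302 CPM in WT. Of the 20 markers, 2 were called higher in RelA-TA-KI at 8 h, near the 7.75% of all genes called higher. The median log2 difference of the markers was 1.01, against -0.01 over all genes. Replicate 2 exceeded replicate 1 in 10 of 10 groups for the marker sum and likewise for Casp1, Nlrp3, Gsdmd and Pycard, in 9 of 10 for Aim2, in 7 for Casp4, in 4 for Mlkl and in 3 for Ripk3. Without RelA-TA-KI replicate 2 at 8 h, which had the highest sum, the Casp1 difference at 8 h was 0.45 (adjusted p = 0.63). The part of macrophage RNA in these levels was not tested.

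**Figure D4:**
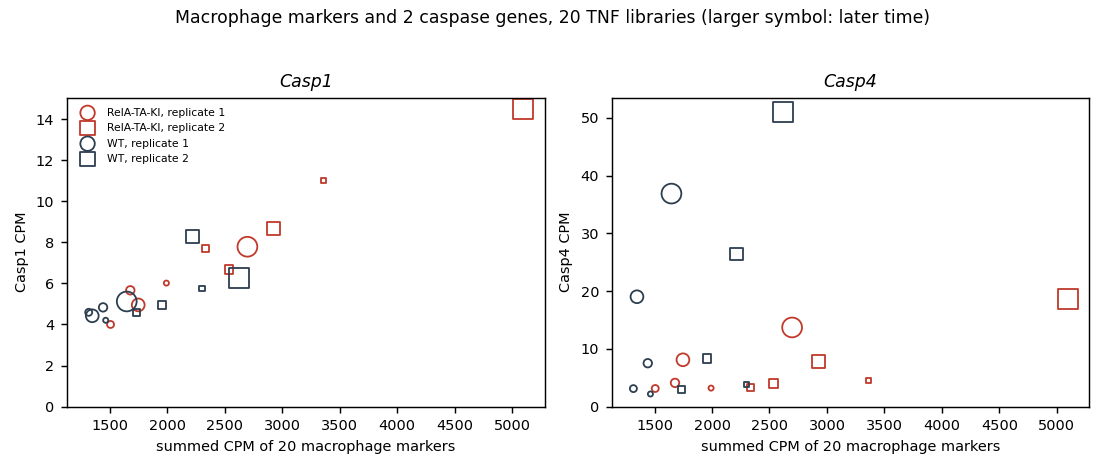
Casp1 (left) and Casp4 (right) CPM against the summed CPM of 20 macrophage markers in the 20 libraries of the TNF table, RelA-TA-KI in red and WT in dark grey-blue, circles for replicate 1 and squares for replicate 2. The library with the highest marker sum (5095 CPM, RelA-TA-KI at 8 h) has the highest Casp1 level (14.5 CPM), while the 2 highest Casp4 levels (36.9 and 51.0 CPM) are in WT libraries with sums of 1647 and 2621 CPM.

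With LPS at 8 h, Casp1 had 160 CPM in RelA-TA-KI and 105 CPM in WT, and with Poly(I:C) at 8 h 133 CPM in RelA-TA-KI and 76.0 CPM in WT. Untreated cells had 11.3 CPM in RelA-TA-KI and 13.6 CPM in WT. The mean response was 3.39 with LPS (SE 0.26, adjusted p = 6.3e-07) and 3.04 with Poly(I:C) (SE 0.25, adjusted p = 2.5e-06). In the same libraries the macrophage sum was 6806 CPM in RelA-TA-KI and 6405 CPM in WT with LPS at 8 h, against 4891 CPM in untreated RelA-TA-KI and 5438 CPM in untreated WT cells, and with Poly(I:C) at 8 h it was 8130 CPM in RelA-TA-KI and 6397 CPM in WT. Of the 20 markers 10 rose and 5 fell with LPS at 8 h, where 30.9% of all genes rose and 33.2% fell, and 11 rose and 1 fell with Poly(I:C), where 25.2% rose and 26.1% fell.

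Casp4 (ENSMUSG00000033538, chr9:5308828-5336783, plus strand), the gene of caspase-11, was the member whose TNF response was called different between genotypes in the fit without a replicate term. RelA-TA-KI libraries had 4.10 and 4.01 CPM at 1 h, 8.10 and 7.80 CPM at 3 h, and 13.7 and 18.6 CPM at 8 h. WT libraries had 7.51 and 8.30 CPM at 1 h, 19.0 and 26.4 CPM at 3 h, and 36.9 and 51.0 CPM at 8 h. Untreated levels were 3.19 and 4.52 CPM in RelA-TA-KI and 2.18 and 3.83 CPM in WT. At 0.5 h both RelA-TA-KI libraries were above the WT libraries, and the difference was not called (log2 0.07, SE 0.33, adjusted p = 0.99). Every RelA-TA-KI library was below every WT library at 1, 3 and 8 h, while the untreated groups overlapped. The RelA-TA-KI level at 8 h was thus below the WT level at 3 h. At 1 h the genotype difference was not called (-0.96, SE 0.27, adjusted p = 0.20). It was called with no filter on low counts (-0.96, adjusted p = 0.0032) and with a term for the replicate number (-0.96, adjusted p = 0.011).

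Casp4 rose 4.17-fold at 8 h in RelA-TA-KI cells (log2 2.06, SE 0.26, adjusted p = 2.5e-05) and 14.1-fold in WT cells (3.82, SE 0.26, adjusted p = 1.4e-07). At 3 h the fold was 2.05 in RelA-TA-KI (adjusted p = 0.018) and 7.33 in WT (adjusted p = 4.0e-06). The genotype difference was -1.52 on the log2 scale at 3 h (SE 0.23, adjusted p = 0.0012), and -1.44 at 8 h (SE 0.21, adjusted p = 0.00043), lower in RelA-TA-KI. The difference of responses was -1.84 at 3 h (SE 0.39, adjusted p = 0.038), and -1.76 at 8 h (SE 0.38, adjusted p = 0.014). At 3 h it was still called without replicate 1 or 2 of WT at 8 h, without replicate 1 or 2 of RelA-TA-KI at 8 h, without WT replicate 1 at 3 h and without WT untreated replicate 2, and was lost without any of the other 14 libraries (adjusted p = 0.056 to 0.27). At 8 h it was lost without WT untreated replicate 1 (-1.45, adjusted p = 0.068) or RelA-TA-KI untreated replicate 2 (-1.49, adjusted p = 0.10), and it stayed called without RelA-TA-KI replicate 2 at 8 h, the library with the highest macrophage sum (-1.99, adjusted p = 0.019). Fitted on the 4 groups concerned alone, neither was called (adjusted p = 0.19 at 3 h and 0.078 at 8 h). The single-time calls with loss on leaving out 1 library were the rise at 1 h in WT (log2 1.34, adjusted p = 0.014), lost without untreated replicate 1 (0.12) or either replicate at 1 h (0.063 and 0.098), and the rise at 3 h in RelA-TA-KI, lost without untreated replicate 1 (0.12) or either replicate at 3 h (0.091 and 0.061).

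In the table of LPS and Poly(I:C) Casp4 rose with both agents. RelA-TA-KI libraries had 3.82, 6.92, 95.4 and 243 CPM at 0.5, 1, 3 and 8 h of LPS, against 9.15, 15.9, 147 and 275 CPM in WT. With Poly(I:C) at 3 and 8 h they had 77.9 and 148 CPM in RelA-TA-KI and 70.0 and 120.2 CPM in WT. The log2 ratio of RelA-TA-KI to WT was -1.26 at 0.5 h of LPS (95% counting interval -1.86 to -0.68), -1.20 at 1 h (-1.65 to -0.77), -0.62 at 3 h (-0.77 to -0.48) and -0.18 at 8 h (-0.28 to -0.07). For Poly(I:C) it was 0.15 at 3 h (-0.01 to 0.32) and 0.30 at 8 h (0.16 to 0.43). These intervals cover counting error only, with no replicate behind them. The difference common to the 9 conditions was not called (-0.34, SE 0.15, adjusted p = 0.16); it was -0.66 (adjusted p = 0.055) in untreated and LPS libraries and 0.01 (adjusted p = 0.98) in untreated and Poly(I:C) libraries.

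Gsdmd (ENSMUSG00000022575, chr15:75862339-75867404, plus strand) encodes the pore-forming protein. At 3 h of TNF it had 11.5 and 16.3 CPM in RelA-TA-KI and 19.8 and 30.1 CPM in WT, and at 8 h 24.0 and 35.0 CPM in RelA-TA-KI and 33.8 and 46.0 CPM in WT. Untreated cells had 12.5 and 14.8 CPM in RelA-TA-KI, against 9.57 and 13.1 CPM in WT. RelA-TA-KI libraries were below WT without overlap at 3 h, and the groups overlapped at 8 h. The genotype difference at 3 h was not called (-0.85, SE 0.29, adjusted p = 0.16). Gsdmd rose at 8 h in RelA-TA-KI (log2 1.11, SE 0.28, adjusted p = 0.0063) and in WT by 1.13 at 3 h (SE 0.29, adjusted p = 0.017) and by 1.80 at 8 h (SE 0.29, adjusted p = 0.00045). At 3 h the RelA-TA-KI response was 0.02 (SE 0.30), and the responses differed by -1.11 (SE 0.42, adjusted p = 0.33), which was not called, but was with no filter on low counts (-1.10, adjusted p = 0.00050). The 8 h call in RelA-TA-KI was lost without untreated replicate 1 (adjusted p = 0.052) or replicate 2 at 8 h (0.083), and the 3 h call in WT without untreated replicate 1 (0.11) or replicate 2 at 3 h (0.17).

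With LPS at 8 h Gsdmd reached 196 CPM in RelA-TA-KI and 160 CPM in WT, and with Poly(I:C) 177 CPM in RelA-TA-KI and 112 CPM in WT, where untreated cells had 16.0 CPM in RelA-TA-KI and 14.3 CPM in WT. The mean response was 3.56 with LPS (SE 0.22, adjusted p = 1.2e-07) and 3.25 with Poly(I:C) (SE 0.22, adjusted p = 3.5e-07). No genotype difference common to the 9 conditions was called (0.13, SE 0.10, adjusted p = 0.43).

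Ripk3 (ENSMUSG00000022221, chr14:55784996-55788857, minus strand) encodes the kinase that commits a cell to necroptosis. Per kilobase of gene model it had the highest mean level of the 8 genes in the TNF table, 31.6 CPM per kb, followed by Gsdmd at 9.97, Mlkl at 5.42, Casp1 at 4.35, Pycard at 3.91, Nlrp3 at 3.25, Casp4 at 3.12 and Aim2 at 1.31 CPM per kb. Untreated RelA-TA-KI libraries had 48.7 and 43.2 CPM, against 59.9 and 52.9 CPM in WT, and at 8 h of TNF RelA-TA-KI had 68.5 and 74.4 CPM, against 66.5 and 57.9 CPM in WT. RelA-TA-KI libraries were thus the lower ones in untreated cells and the higher ones at 8 h, with no overlap at either time. Neither genotype difference was called. It was -0.29 in untreated cells (SE 0.10, adjusted p = 0.51) and 0.20 at 8 h (SE 0.10, adjusted p = 0.20). Ripk3 rose in RelA-TA-KI cells at every time, with log2 changes of 0.48, 0.41, 0.52 and 0.64 at 0.5, 1, 3 and 8 h (SE 0.10 each, adjusted p = 0.039, 0.044, 0.0038 and 0.00023). In WT cells the changes were 0.27, 0.21, 0.09 and 0.14 and none was called. The responses differed by 0.49 at 8 h (SE 0.15, adjusted p = 0.057), which was not called. That value passed the threshold with no filter on low counts (adjusted p = 0.025), and without WT replicate 1 at 8 h or without WT untreated replicate 2 (adjusted p = 0.046 each). The 0.5 h call was lost without either RelA-TA-KI replicate of the untreated, 0.5 h or 3 h groups (adjusted p = 0.054 to 0.35). The 1 h call was lost without any 1 of the 10 RelA-TA-KI libraries or WT replicate 2 at 0.5 h (0.051 to 0.38), and the 3 h call without RelA-TA-KI untreated replicate 2 (0.061).

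In the table of LPS and Poly(I:C) Ripk3 was higher in RelA-TA-KI than in WT in all 9 conditions. Untreated libraries had 30.1 CPM in RelA-TA-KI and 23.9 CPM in WT. With LPS the levels at 0.5, 1, 3 and 8 h were 32.2, 33.8, 37.5 and 43.8 CPM in RelA-TA-KI and 20.1, 20.5, 25.0 and 32.3 CPM in WT. With Poly(I:C) they were 27.8, 24.3, 29.5 and 40.8 CPM in RelA-TA-KI and 19.5, 18.9, 24.0 and 26.5 CPM in WT. The common difference was 0.51 (SE 0.06, adjusted p = 0.00013). The untreated libraries of this table and those of the TNF table differ in direction, since RelA-TA-KI was the lower one in the TNF table. That lower level in the TNF table was not called. Ripk3 rose with LPS at 8 h (mean response 0.49, SE 0.12, adjusted p = 0.0042), and its 8 h response to Poly(I:C) was 0.30 (adjusted p = 0.061).

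Mlkl (ENSMUSG00000012519, chr8:111311797-111338177, minus strand) encodes the executioner of necroptosis. At 3 h of TNF it had 8.46 and 9.47 CPM in RelA-TA-KI and 13.9 CPM in both WT libraries, and at 8 h 16.7 and 21.2 CPM in RelA-TA-KI and 24.9 and 34.8 CPM in WT. Untreated cells had 9.09 and 7.07 CPM in RelA-TA-KI, against 8.70 and 8.37 CPM in WT. The groups did not overlap at 3 and 8 h, with RelA-TA-KI the lower. At 1 h they did not overlap either, with RelA-TA-KI the higher, and the difference was not called (log2 0.21, SE 0.19, adjusted p = 0.83). Mlkl rose at 8 h in RelA-TA-KI (log2 1.23, SE 0.18, adjusted p = 9.1e-05), and in WT by 0.70 at 3 h (SE 0.18, adjusted p = 0.018) and by 1.81 at 8 h (SE 0.17, adjusted p = 5.5e-06). It was lower in RelA-TA-KI at 8 h by genotype (-0.65, SE 0.16, adjusted p = 0.014), while the responses differed by -0.57 (SE 0.25, adjusted p = 0.19), which was not called. The genotype call was lost without WT replicate 2 at 8 h (-0.39, adjusted p = 0.17), without RelA-TA-KI replicate 1 at 8 h (-0.50, adjusted p = 0.11) and with the 2 groups alone (-0.65, adjusted p = 0.13). At 3 h the genotype difference was -0.63 (adjusted p = 0.087), and it was -0.63 without WT replicate 1 or 2 at 8 h. It was called with no filter on low counts (-0.62, adjusted p = 0.038) and with a term for the replicate number (-0.62, adjusted p = 0.032). The WT call at 3 h was lost without any 1 of the 4 libraries compared (adjusted p = 0.059 to 0.12).

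Mlkl and Casp4 had the largest mean responses of the 8 genes at 8 h of either agent. With LPS, Mlkl had 120 CPM in RelA-TA-KI and 126 CPM in WT at 3 h, and 374 CPM in RelA-TA-KI and 347 CPM in WT at 8 h. Untreated cells had 5.88 CPM in RelA-TA-KI and 6.74 CPM in WT. With Poly(I:C) at 8 h it had 310 CPM in RelA-TA-KI and 181 CPM in WT. The mean response at 8 h was 5.83 with LPS (SE 0.28, adjusted p = 2.2e-08) and 5.26 with Poly(I:C) (SE 0.28, adjusted p = 5.5e-08), while for Casp4 it was 6.18 with LPS and 5.25 with Poly(I:C). No genotype difference common to the 9 conditions was called for Mlkl (0.09, SE 0.12, adjusted p = 0.66), and in single libraries the ratio of RelA-TA-KI to WT was -0.07 at 3 h of LPS and 0.78 at 8 h of Poly(I:C) on the log2 scale.

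Other genes of these pathways were counted in 5 lists. At 8 h of TNF 21.6% of all genes rose and 20.5% fell in RelA-TA-KI, against 12.0% and 8.80% in WT. These unequal shares are the background for the counts of each genotype below. Of 7 guanylate-binding and immunity-related GTPases, which help caspase-11 and AIM2 reach bacterial products, 5 rose at 8 h of TNF in RelA-TA-KI and 7 in WT. The difference of responses at 8 h was called lower in RelA-TA-KI for 5 of them, against 3.42% of all genes. The median difference of the 7 was -2.79, against -0.01 over all genes. Gbp2 averaged 74.7 CPM at 8 h in RelA-TA-KI and 701 CPM in WT, where untreated cells averaged 22.3 CPM in RelA-TA-KI and 20.2 CPM in WT, and its responses differed by -3.34 (SE 0.44, adjusted p = 0.00065), a call kept under all 25 alternatives. Gbp5 averaged 7.58 CPM in RelA-TA-KI and 109 CPM in WT at 8 h (difference -4.49, SE 1.26, adjusted p = 0.047), and Gbp3 53.7 CPM in RelA-TA-KI and 206 CPM in WT (-2.79, SE 0.57, adjusted p = 0.011). Gm12250, listed by its synonym Irgb10, averaged 2.00 CPM in RelA-TA-KI and 12.9 CPM in WT (-4.05, SE 1.02, adjusted p = 0.029). Of the 25 alternatives, the 8 h call was lost in 16 for Gbp5 (adjusted p up to 0.19), in 7 for Gm12250 (up to 0.23) and in 1 for Gbp3, which was without WT untreated replicate 1 (0.060). With LPS and with Poly(I:C) at 8 h all 7 rose, and 1 of them, Gbp5, was called lower in RelA-TA-KI over the 9 conditions (-0.59, SE 0.18, adjusted p = 0.040), a call lost in 8 of 15 alternatives (adjusted p up to 0.33).

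Of 12 genes of necroptosis signaling upstream of RIPK3 and its brakes, 4 rose and 1 fell in RelA-TA-KI at 8 h of TNF, and 7 rose and 0 fell in WT. The difference of responses at 8 h was called lower in RelA-TA-KI for 4 of the 12 and called higher for 1. Over all genes 3.42% were called lower and 3.45% higher. Zbp1, a sensor of Z-form nucleic acids that engages RIPK3, averaged 5.52 CPM in RelA-TA-KI and 22.9 CPM in WT at 8 h, with a difference of -2.85 (SE 0.74, adjusted p = 0.035) that lost its call in 6 of 25 alternatives (adjusted p up to 0.14). Birc2 and Birc3 encode ubiquitin ligases that keep RIPK1 in survival signaling. Birc2 averaged 24.5 CPM in RelA-TA-KI and 58.6 CPM in WT at 8 h, with untreated means of 29.2 CPM in RelA-TA-KI and 24.1 CPM in WT, and its responses differed by -1.52 (SE 0.17, adjusted p = 0.00022), a call kept under all 25 alternatives. Birc3 averaged 61.8 CPM in RelA-TA-KI and 100 CPM in WT (difference -0.88, SE 0.24, adjusted p = 0.045), a call lost in 17 of 25 alternatives (adjusted p up to 0.17). Tlr3, the receptor of double-stranded RNA, rose in RelA-TA-KI (0.67, SE 0.24, adjusted p = 0.037) and in WT (1.83, SE 0.24, adjusted p = 9.2e-05), and that difference was not called (-1.16, adjusted p = 0.058). The 4 of 12 that rose in RelA-TA-KI are near the share of all genes there. With LPS at 8 h 10 of the 12 rose and with Poly(I:C) 9, against 30.9% and 25.2% of all genes.

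Among the 5 interleukin substrates and antagonists, 3 rose in RelA-TA-KI and 4 in WT at 8 h of TNF, and no difference of responses was called. Il1b, the substrate of caspase-1, averaged 15.9 CPM in RelA-TA-KI and 4.43 CPM in WT at 8 h, and Il1a 5.37 CPM in RelA-TA-KI and 2.21 CPM in WT. Il1b had 0 counts in untreated WT cells, so no fold is given. With LPS at 8 h Il1a had 51.6 CPM in RelA-TA-KI and 1420 CPM in WT, and Il1b 667 CPM in RelA-TA-KI and 3300 CPM in WT. Il1rn, the receptor antagonist, rose in RelA-TA-KI (1.64, SE 0.33, adjusted p = 0.0012) and in WT (1.17, SE 0.33, adjusted p = 0.020). Il18bp, which binds interleukin-18, was not called in RelA-TA-KI (-0.75, SE 0.56, adjusted p = 0.30) and rose in WT (1.61, SE 0.46, adjusted p = 0.023), and that difference was not called (-2.36, adjusted p = 0.067). Over the 9 conditions Il1a and Il1b were called lower in RelA-TA-KI (Il1a -3.46, SE 0.41, adjusted p = 0.00016, and Il1b -2.29, SE 0.43, adjusted p = 0.0035). The Il1b call was lost with untreated and Poly(I:C) libraries only (adjusted p = 0.44) and with 3 and 8 h only (0.11).

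Of 16 further inflammasome sensors and partners, 11 were tested. At 8 h of TNF 4 rose and 1 fell in RelA-TA-KI, and 1 rose and 2 fell in WT. Ifi204, an interferon-inducible relative of AIM2, rose in RelA-TA-KI (1.69, SE 0.45, adjusted p = 0.0075) and in WT (1.85, SE 0.47, adjusted p = 0.011). Txnip, a partner of NLRP3, fell in RelA-TA-KI (-0.44, SE 0.06, adjusted p = 6.4e-05) and in WT (-0.37, SE 0.06, adjusted p = 0.00061). Naip2 and Nlrc4, which together sense bacterial secretion proteins, were called in RelA-TA-KI (1.25 and 0.97, adjusted p = 0.016 and 0.030) and not in WT, and their differences of responses were not called (adjusted p = 0.56 and 0.19). Of 11 further gasdermins and channel or rupture genes 4 were tested. At 8 h 2 rose and 1 fell in RelA-TA-KI, and 2 rose and 0 fell in WT. Ninj1, which mediates plasma membrane rupture, rose in RelA-TA-KI (1.4, SE 0.13, adjusted p = 2.2e-06) and in WT (1.10, SE 0.13, adjusted p = 3.7e-05). Panx1, a channel that releases ATP, rose in RelA-TA-KI (0.70, SE 0.11, adjusted p = 0.00012) and in WT (0.51, SE 0.11, adjusted p = 0.0035). Gsdme, a gasdermin cleaved by caspase-3, fell in RelA-TA-KI (-0.78, SE 0.24, adjusted p = 0.017).

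Genes with the most similar pattern over the 20 TNF libraries were named by Pearson correlation of log2 CPM, as a description, since the libraries share treatments and depth. Casp4 was closest to Ifngr2 (r = 0.98), Tnip1 (0.974) and Acod1 (0.972). Gsdmd was closest to Parp14 (0.975), Psmb8 (0.968) and Tor3a (0.967), and Mlkl to Acsl5 (0.959), Gsap (0.948) and Sptlc2 (0.944). Nlrp3 was closest to Sik1 (0.934), Ccl7 (0.926) and Nfe2l2 (0.921), and Ripk3 to Ptgs2 (0.895), AI506816 (0.872) and Rangap1 (0.865). Casp1 was closest to Adgre1 (0.944), which is one of the macrophage markers, Ms4a7 (0.941) and Prex1 (0.94). Aim2 was closest to Milr1 (0.872), Cotl1 (0.862) and Slc7a3 (0.853), and Pycard to Coro2a (0.849), 2610507B11Rik (0.845) and Stab1 (0.834). Among the members themselves the highest correlations were Gsdmd with Mlkl (0.90), Casp4 with Gsdmd (0.88) and Casp4 with Mlkl (0.86), and the lowest was Ripk3 with Pycard (-0.41).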

How the data were processed

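Stranded poly(A) libraries, per the labels' protocols, were read single-end. Per the submitters' processing notes the authors used cutadapt 1.9.1, STAR and featureCounts 1.4.6 with mm10; DESeq2 is named without a role. The authors deposited whole-number counts by gene, not normalized, with 20 TNF columns in one table and 18 LPS or Poly(I:C) columns in the other, and the 2 tables were normalized separately here. Which annotation was used, how multi-mapping reads were treated and whether strand entered the counting are not given in the sources used here. Gene lengths deposited with the counts gave CPM per kb.

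Counts were tested with edgeR 4.0.16 (R 4.3.3): TMM scaling, filterByExpr and the quasi-likelihood F test, with a mean per group (TNF, 10 residual degrees of freedom, 13843 genes) or condition plus genotype (LPS and Poly(I:C), 8 residual degrees of freedom, 12752 genes), and Benjamini-Hochberg adjustment over all genes tested at a threshold of 0.05. Each SE is the size of the log2 change over the root of its F value. Biological coefficients of variation were 10.2% and 12.7%. Fits were tested on simulated data. Single conditions are log2 ratios with 95% binomial intervals. Alternatives were other size factors, no filter, DESeq2 1.42.0, a replicate block, fewer groups and leaving out libraries.

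The members, lists and tests were chosen with earlier results of these data known. All 8 members are named in every comparison. From each list at most 4 genes are named, those with the largest change among the genes called in the 8 h TNF responses or in the difference of responses at 3 or 8 h. Likeness names 3 genes per member among genes with a mean of at least 5 CPM. Motifs were searched with Python 3. The promoter sequences are RefSeq's.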

Additional observations from a re-analysis of the deposited data

Results flagged for a closer look

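The TNF response differed between RelA-TA-KI and WT cells by a test of the difference itself (edgeR's quasi-likelihood test with Benjamini-Hochberg adjustment over all genes) for 1 member and 11 listed genes. Values are log2 responses, RelA-TA-KI minus WT, and each was recomputed under 25 alternatives. Calls kept under all 25 were those of Gbp2 (-3.91 at 3 h and -3.34 at 8 h), Birc2 (-1.34 at 3 h and -1.52 at 8 h), Birc3 at 1 h (-1.87) and Cflar at 8 h (0.77), the 1 gene with a positive value. The Casp4 difference was -1.84 at 3 h, with the call lost in 15, and -1.76 at 8 h, lost in 3. Gbp3 differed by -3.41 at 3 h, lost in 6, and by -2.79 at 8 h, lost in 1. Gbp5 differed by -6.31 at 3 h, lost in 17, and by -4.49 at 8 h, lost in 16. Gbp7 differed by -3.26 at 3 h, lost in 6. At 8 h Gm12250 differed by -4.05, lost in 7, Zbp1 by -2.85, lost in 6, and Irgm2 by -1.96, lost in 13. Birc2 differed by -0.96 at 1 h, lost in 13, and at 8 h Birc3 by -0.88 and Cyld by -0.68, each lost in 17. No group held 4 or more libraries, so no single library could be tested as an outlier.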

How the results depend on the processing

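For 133 gene results, 2493 pairs of a result and an alternative were computed: 2240 kept direction and side of the threshold, 224 lost a call, 28 gained one and 1 changed sign, and 81 results kept both under every alternative. The one that changed sign was the uncalled Casp4 genotype difference over the LPS and Poly(I:C) table, 0.01 with untreated and Poly(I:C) libraries only. The cause of the changes was not tested, except that fewer groups leave fewer libraries. At 8 h of TNF, where 5 members were called in RelA-TA-KI and 4 in WT, the counts over all alternatives were 4 to 5 in RelA-TA-KI and 4 in WT. With no filter on low counts the members called were 2 in RelA-TA-KI at 1 h, 1 in WT at 0.5 h, 2, 3 and 4 for genotype at 1, 3 and 8 h, 1, 3 and 2 for the difference of responses at 1, 3 and 8 h, and 2 for LPS at 1 h. DESeq2 called 1 in WT at 0.5 h, 2 for LPS at 1 h and 1 for Poly(I:C) at 1 h. When each contrast was fitted on its own groups, 0 and 0 were called in RelA-TA-KI at 0.5 and 1 h, 1 and 2 in WT at 1 and 3 h, 0 and 1 for genotype at 3 and 8 h, and 0 and 0 for the difference of responses at 3 and 8 h. With untreated and Poly(I:C) libraries only, 1 was called for genotype. Shares of all genes called are not given for any alternative here. Whether calls changed alike over all genes was therefore not checked. Leaving out each library in turn gave 0 to 1 in RelA-TA-KI at 0.5 h, 0 to 1 at 1 h and 1 to 3 at 3 h. In WT it gave 1 to 2 at 1 h and 2 to 4 at 3 h. For genotype it gave 1 to 2 at 3 h and 1 to 2 at 8 h, and for the difference of responses 0 to 1 at 3 h and 0 to 2 at 8 h.

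Groups share the replicate numbers 1 and 2. The difference of replicate 2 minus replicate 1 correlated between groups at 0.01 to 0.53 (median 0.25) over 45 pairs of groups and exceeded 0.1 in 44 of them, and in 20 of 20 within a genotype. Libraries with the same number thus tended to deviate together, as a hint from the data. The pair at 0.01 was between genotypes, and the lowest within a genotype was 0.16. The labels do not say what a number marks, so the block is given as an alternative. The fit reported above has no replicate term, so deviation shared by a replicate number stays in its spread. With a replicate block the members called were 2 in RelA-TA-KI at 1 h, 1 in WT at 0.5 h, 1 for genotype in untreated cells, 2, 4 and 4 for genotype at 1, 3 and 8 h, and 1, 3 and 3 for the difference of responses at 1, 3 and 8 h. The calls gained by the block included Nlrp3 in RelA-TA-KI at 1 h (1.53, adjusted p = 6.5e-05) and in WT at 0.5 h (1.9, 4.3e-05), and the genotype differences of Nlrp3 at 1 h (-1.0, 0.00038), Casp4 at 1 h (-0.96, 0.011), Gsdmd at 3 h (-0.85, 7.6e-05), Mlkl at 3 h (-0.62, 0.032), Casp1 at 8 h (0.95, 0.0035) and Aim2 in untreated cells (0.89, 0.034). The differences of responses of Gsdmd at 3 h (-1.12, 0.00074) and Ripk3 at 8 h (0.50, 0.014) were gained too. Shares of all genes called with the block are not given, so a general rise in calls was not checked. Depth limits Nlrp3 and Casp4 in untreated cells, which had as few as 13 and 15 counts per library. It also limits Aim2, with 15 to 67 counts per TNF library, and Pycard, with 22 to 90.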

Other observations

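Beside the genes above, P2rx7, the ATP-gated channel that feeds NLRP3 activation, fell with LPS at 8 h (mean log2 response -2.45, SE 0.21, adjusted p = 1.7e-06) and with Poly(I:C) at 8 h (-1.56, SE 0.18, adjusted p = 3.8e-05), while its TNF responses at 8 h were -0.46 in RelA-TA-KI and -0.41 in WT cells and were not called. Cflar, which encodes the caspase-8 inhibitor cFLIP, rose more with TNF at 8 h in RelA-TA-KI (1.47, SE 0.09, adjusted p = 5.9e-08) than in WT cells (0.70, SE 0.09, adjusted p = 1.0e-04), with a called difference of responses (0.77, SE 0.13, adjusted p = 0.0043). Cyld, a deubiquitinase that favours necroptosis, was not called in RelA-TA-KI (-0.16, SE 0.14, adjusted p = 0.38) and rose in WT cells (0.52, SE 0.13, adjusted p = 0.012), with a called difference of responses (-0.68, SE 0.19, adjusted p = 0.047) that was lost in 17 of 25 alternatives. The Cyld rise in WT was lost without WT replicate 1 at 8 h (0.39, adjusted p = 0.12) or WT untreated replicate 2 (0.48, adjusted p = 0.091). P2rx7, Cflar and Cyld were chosen from the lists after their values were seen.

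At 1 h of Poly(I:C), Nlrp3 had 8.44 CPM in the RelA-TA-KI library and 35.0 CPM in the WT library, and Il1b had 3.37 CPM in RelA-TA-KI and 35.1 CPM in WT. At 3 h Il1b was 3.83 CPM in RelA-TA-KI and 3.32 CPM in WT. A single library per condition gives no replicate for this value.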
